A study of Mus musculus with 4 samples.

Results

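Interferon response genes and interferon-induced GTPases were followed in bone marrow cells enriched for CD117 (KIT), a surface receptor of hematopoietic stem and progenitor cells (HSPCs). The 49 genes were taken by name, as the rows of the deposited table whose Entrez identifier carries a listed mouse symbol, out of 24415 rows in all. RNA sequencing counts were deposited for 4 libraries of mice on a background of C57BL/6 and 129X1/SvJ. The first group holds 2 libraries of wild-type mice, which carry no allele named in the labels. The second group holds 2 libraries of mice with the genotype inducible HIF-1a, in which a constitutively active form of HIF-1α, the subunit of the transcription factor HIF-1 that oxygen controls, was induced. The promoter or Cre that drives the transgene, the inducing agent, the age of the mice, the time after induction and any pooling of mice were not stated in the labels. The labels do not tell whether each library came from its own mouse, so a p-value here measures only how far these libraries spread, and that spread may be technical.

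Interferons are secreted cytokines. Type I interferons signal through the receptor chains IFNAR1 and IFNAR2 and the kinases JAK1 and TYK2, which activate a complex holding STAT2 and IRF9 that binds the interferon-stimulated response element (ISRE). Interferon gamma signals through IFNGR1, IFNGR2, JAK1 and JAK2, and many of its target genes carry a gamma-activated site (GAS). The targets include sensors of viral RNA, antiviral enzymes, and families of GTPases that attack the vacuoles of intracellular pathogens. In mouse bone marrow, interferons drive quiescent hematopoietic stem cells into cycle, and some interferon target genes are expressed in stem cells without infection.

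Promoter windows are shown first because 3 of the GTPase genes described further on, Tgtp1, Igtp and Irgm2, shared a motif arrangement. RefSeq windows of GRCm38.p6, from 250 bases before to 50 after an annotated start, were available for 32 of the 49 genes (40 windows). The ISRE core was searched as GAAANNGAAA on either strand and the GAS as TTCNNNGAA, which reads the same on both strands. The patterns can share 3 letters where a GAS ends in the GAA that opens an ISRE core, as in Bst2. An ISRE core lay in 22 of the 40 windows (55.0%), against 3.44% of all 32851 windows of that length, and a GAS in 11 (27.5%), against 8.30%. By gene, 21 of 32 had an ISRE core, 11 a GAS, 7 both and 7 neither. The core of the hypoxia response element bound by HIF, searched as ACGTG or GCGTG on either strand, lay in 14 of the 40 windows (35.0%), against 43.8% of all windows. A match is a run of letters and not a measured binding site, and no match says only that those letters are absent from the window.

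The windows of Tgtp1, Igtp and Irgm2, each of an immunity-related GTPase (IRG), held a GAS followed after 2 bases by an ISRE core. This arrangement was found in 5 of the 32851 windows, and the other 2 belonged to Tgtp2, a close copy of Tgtp1, and to Gm12185. The arrangement and its gap of 2 bases were not among the motifs planned, so this count is a description and no test. The windows of Igtp and Irgm2 printed below share long runs of letters, so their matches are not independent. The window of Gbp2, a guanylate binding protein gene, and those of Ifih1 and Rsad2 are given for comparison, since Ifih1 was higher and Rsad2 lower in every inducible HIF-1α library than in every wild-type library. Capitals mark ISRE core and GAS matches, all sequences run 5′ to 3′ along the gene, and the start is the base after the 250th.
Tgtp1 (chr11:48992197-48992496, minus strand): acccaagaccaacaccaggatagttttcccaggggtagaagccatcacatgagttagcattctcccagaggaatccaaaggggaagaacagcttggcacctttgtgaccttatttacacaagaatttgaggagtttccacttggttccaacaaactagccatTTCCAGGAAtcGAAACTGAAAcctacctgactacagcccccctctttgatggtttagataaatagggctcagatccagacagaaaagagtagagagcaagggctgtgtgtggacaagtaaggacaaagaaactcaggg
Igtp (chr11:58199306-58199605, plus strand): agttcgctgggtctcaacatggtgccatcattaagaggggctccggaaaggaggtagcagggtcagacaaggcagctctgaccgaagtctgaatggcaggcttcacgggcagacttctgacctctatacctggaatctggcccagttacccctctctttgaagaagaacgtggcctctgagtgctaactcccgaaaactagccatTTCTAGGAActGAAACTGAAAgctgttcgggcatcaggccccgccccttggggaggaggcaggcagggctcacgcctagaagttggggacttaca
Irgm2 (chr11:58214727-58215026, plus strand): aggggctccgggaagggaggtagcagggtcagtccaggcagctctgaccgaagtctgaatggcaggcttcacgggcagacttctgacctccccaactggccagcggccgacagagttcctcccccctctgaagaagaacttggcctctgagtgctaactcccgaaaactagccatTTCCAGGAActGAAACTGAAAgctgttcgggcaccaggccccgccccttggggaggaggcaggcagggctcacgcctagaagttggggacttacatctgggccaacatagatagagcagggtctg
Gbp2 (chr3:142620413-142620712, plus strand): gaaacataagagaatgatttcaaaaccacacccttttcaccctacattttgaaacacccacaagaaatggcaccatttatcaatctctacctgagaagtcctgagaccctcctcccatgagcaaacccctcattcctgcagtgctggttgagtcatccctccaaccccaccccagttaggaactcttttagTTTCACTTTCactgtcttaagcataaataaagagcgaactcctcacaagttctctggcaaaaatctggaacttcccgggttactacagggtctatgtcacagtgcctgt
Ifih1 (chr2:62646206-62646505, minus strand): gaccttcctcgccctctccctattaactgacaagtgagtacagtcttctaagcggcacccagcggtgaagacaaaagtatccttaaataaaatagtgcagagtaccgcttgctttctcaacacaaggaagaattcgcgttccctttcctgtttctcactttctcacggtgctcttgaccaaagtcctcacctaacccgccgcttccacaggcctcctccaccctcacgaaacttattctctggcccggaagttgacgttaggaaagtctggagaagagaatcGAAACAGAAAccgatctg
Rsad2 (chr12:26456403-26456702, minus strand): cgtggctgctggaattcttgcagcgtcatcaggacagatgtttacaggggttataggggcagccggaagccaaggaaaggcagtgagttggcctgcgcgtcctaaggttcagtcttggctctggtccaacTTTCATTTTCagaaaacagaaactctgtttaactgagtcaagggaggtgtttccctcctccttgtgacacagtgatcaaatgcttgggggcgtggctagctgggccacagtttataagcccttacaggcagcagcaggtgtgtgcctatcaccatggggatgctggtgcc

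**Figure D1:**
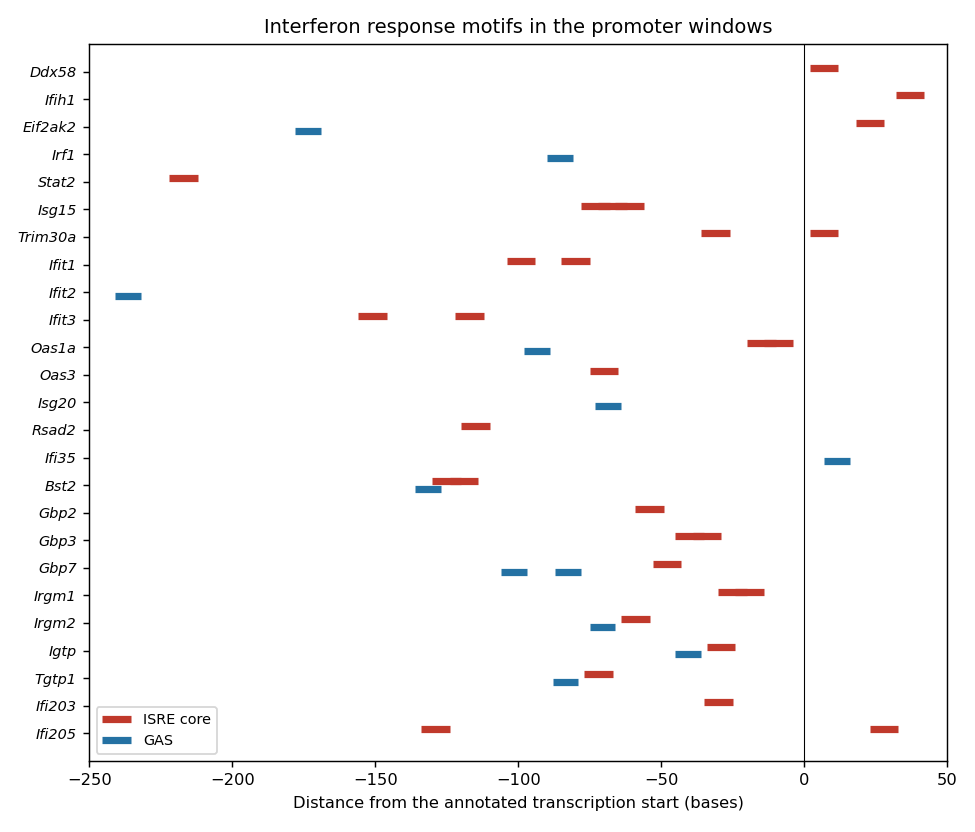
Positions of ISRE core matches (red) and GAS matches (blue) in the promoter windows of the 25 interferon response genes with a match, in bases from the annotated transcription start at 0. In Tgtp1, Igtp and Irgm2 the GAS lies directly before the ISRE core, and in Irgm1 and Gbp2 there is an ISRE core and no GAS.

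Total counts were 22221798 to 27539149 per library. Values are given as CPM, counts relative to library size after scaling by the trimmed mean of M values (TMM). A gene with 0 counts could have a level of up to 3 counts, or 0.112 to 0.138 CPM, a limit that covers counting error only. The labelled cell type was checked on 11 HSPC markers, all of which were detected in every library. Their summed level was 3674 and 3870 CPM in wild type, 4009 CPM in inducible HIF-1α library 1 and 2222 CPM in inducible HIF-1α library 2. Mpo was the largest part of it in every library, with 1964 and 2261 CPM in wild type against 2076 and 910 CPM. Elane had 635 and 605 CPM in wild type against 677 and 266 CPM. Kit itself stood at 268, 242, 347 and 390.4 CPM in the same order, and Myb at 534, 501, 574 and 509 CPM. Apart from Kit and Myb, each HSPC marker was lower in library 2 than in both wild-type libraries. Markers of mature cells were detected too, so the values cannot be assigned to HSPCs alone, and in bulk RNA fewer cells of a type and less RNA per cell cannot be told apart.

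The 2 inducible HIF-1α libraries went apart. In inducible HIF-1α library 1, 39 of the 49 genes stood above both wild-type libraries (36.5% of the 14043 genes tested did so). In inducible HIF-1α library 2, 32 of the 49 stood below both (42.4% of the genes tested). For 24 of the 49 genes both held at once, library 1 above and library 2 below both wild-type libraries, against 7.38% of the genes tested, and for none was it the other way round. Directly, inducible HIF-1α library 1 exceeded library 2 by over 2-fold in 33 of the 49 genes (8.71% of the genes tested), while the wild-type libraries were over 2-fold apart only in Gbp4 among the 49 (2.34% of the genes tested). The median log2 ratio of inducible HIF-1α library 1 to library 2 was 1.31 over the 49 genes and 0.0042 over all genes tested, on log2(CPM + 0.5). These ratios each compare single libraries and carry no test.

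**Figure D2:**
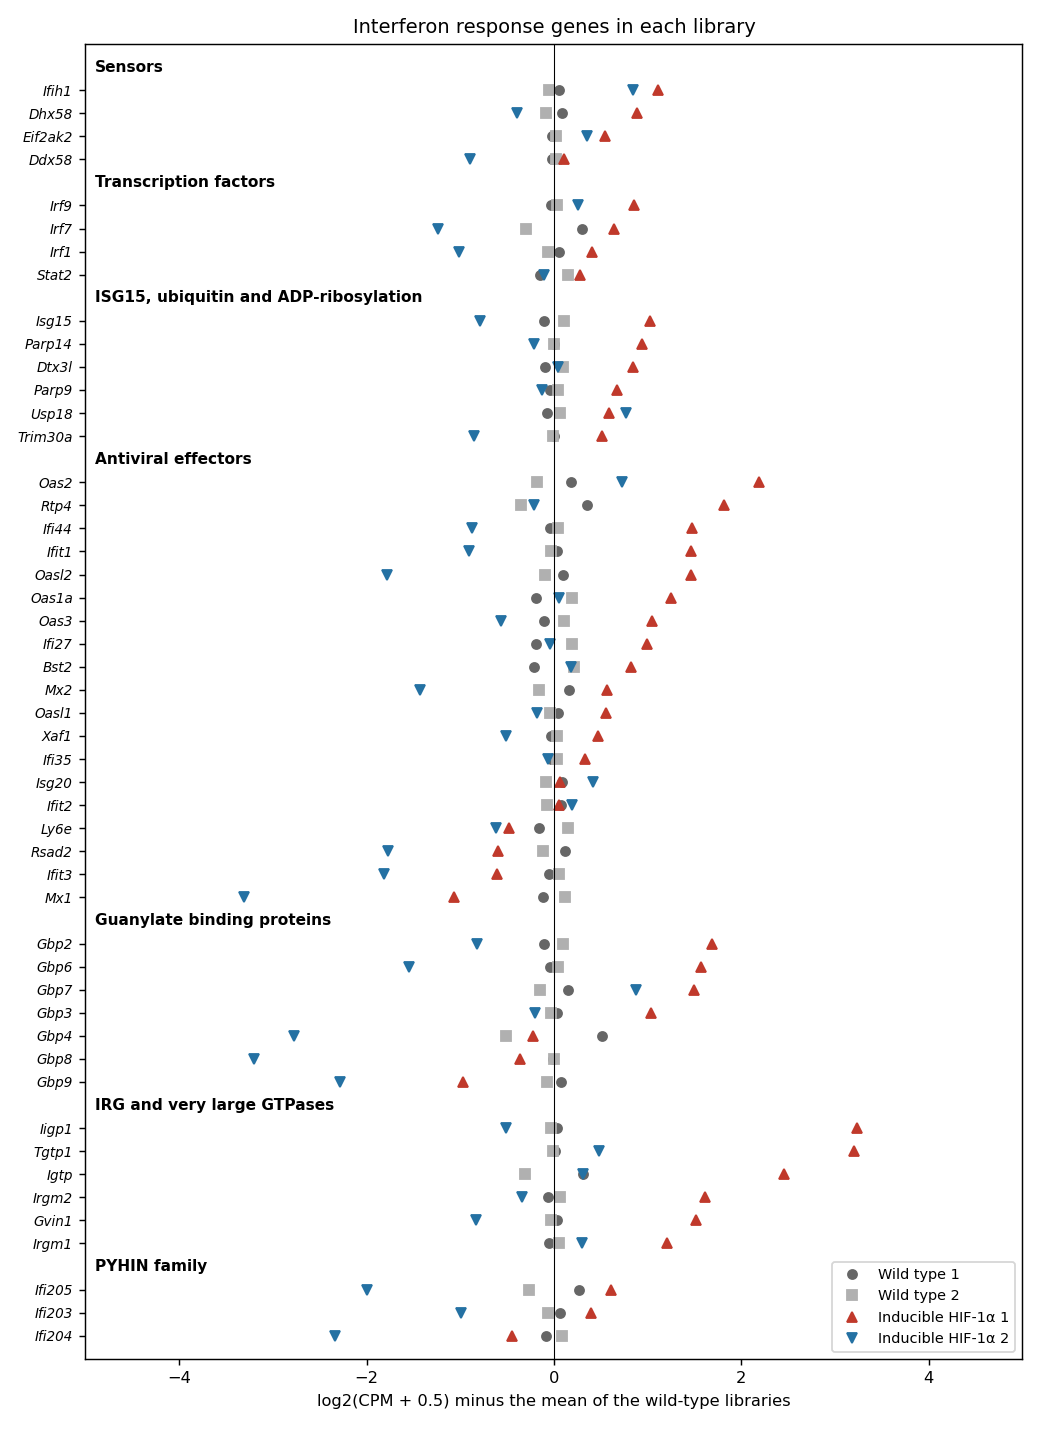
Level of each of the 49 interferon response genes in the 4 libraries as log2(CPM + 0.5) minus the mean of the wild-type libraries, by role. In 39 genes the red triangle (inducible HIF-1α library 1) lies right of both wild-type points, and in 32 the blue triangle (library 2) lies left of both.

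Taken as a comparison of genotypes, no interferon response gene passed. All 49 genes passed the filter on low counts. Of them 0 were higher and 0 were lower at an adjusted p under 0.05 by edgeR's quasi-likelihood test with Benjamini-Hochberg adjustment over all genes tested, against 0.114% higher and 1.004% lower among those genes. At an unadjusted p under 0.05, 8 were higher and 3 lower (5.44% and 11.5% of the genes tested). The median log2 fold change was 0.46 over the 49 genes and 0.0010 over all genes tested, with 34 of the 49 above 0 (50.1% of the genes tested). DESeq2 called 4 higher (Ifih1, Oas2, Gbp7 and Igtp) and 1 lower (Gbp9), where it called 1.22% and 5.69% of all genes. The exact test of edgeR called 4 higher (Ifih1, Oas2, Gbp7 and Tgtp1) and Gbp9 lower (1.36% and 6.62% of all genes), and limma-voom called none of the 49 (0.121% and 1.36%). Without a filter on low counts the quasi-likelihood test called Ifih1, Oas2, Gbp7 and Tgtp1 higher and none lower (0.672% and 3.55%). With the replicate number as a block it called Gbp7 higher and none lower (0.242% and 2.47%).

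The outcome turned on which inducible HIF-1α library was left out. With replicate 2 of inducible HIF-1α left out, 26 of the 49 genes rose and 2 fell (3.84% and 7.64% of all genes), with a median log2 fold change of 0.88. With replicate 1 left out instead, 4 rose and 22 fell (12.4% and 19.7% of all genes), with a median of -0.52. In each of these fits the lone inducible library was assumed to vary like the wild-type libraries, and both fits share those. The fits without either wild-type library in turn called almost no gene of any kind, so they cannot decide on the 49.

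**Figure D3:**
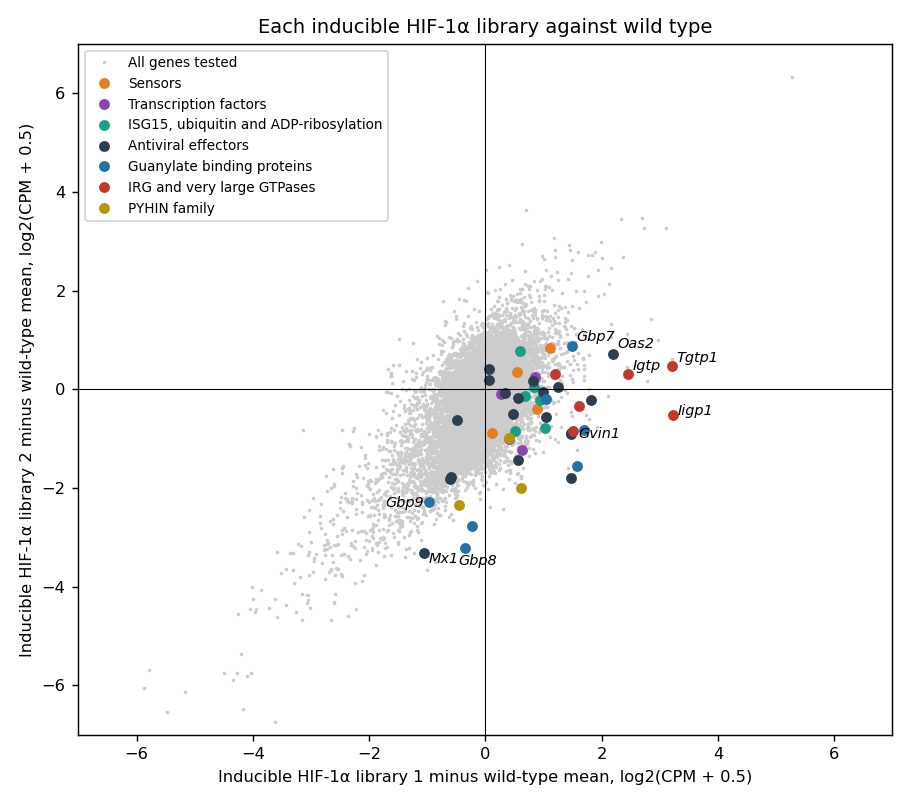
Each inducible HIF-1α library against the mean of the wild-type libraries, log2(CPM + 0.5), with library 1 on the horizontal and library 2 on the vertical axis; grey points are all 14043 genes tested and coloured points the 49 interferon response genes. Most coloured points lie to the right of 0 and below 0, with Iigp1 and Tgtp1 farthest right and Mx1 and Gbp8 lowest.

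The groups did not overlap for 16 of the 49 genes. In 9 of them both inducible HIF-1α libraries were above both wild-type libraries (24.6% of the genes tested) and in 7 both were below (28.2%). The 9 were Ifih1, Eif2ak2, Irf9, Usp18, Oas2, Gbp7, Irgm1, Igtp and Tgtp1, and the 7 were Ifit3, Mx1, Rsad2, Ly6e, Gbp8, Gbp9 and Ifi204. Both shares lie under those of all genes, so the count of separated genes does not set the list apart. By a 2-fold limit, 17 of the 49 genes were above both wild-type libraries in library 1 (1.09% of the genes tested) and none was below (4.63%). In library 2 none was over 2-fold above both (2.58%) and 11 were over 2-fold below (12.5%).

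Among the sensors of viral RNA, the helicase gene Ifih1, encoding MDA5, stood apart from Ddx58, encoding RIG-I. Ifih1 (chromosome 2, 62595618 to 62646255 in GRCm38) had 29.5 and 27.3 CPM in wild type and 61.8 and 51.4 CPM in inducible HIF-1α. Both inducible libraries lay above both wild-type libraries, with a log2 fold change of 0.99 ± 0.21 (SE) and an adjusted p of 0.0886 by edgeR's quasi-likelihood test. Leaving out replicate 1 or replicate 2 of inducible HIF-1α gave 0.85 (adjusted p = 0.000334) and 1.15 (adjusted p = 8.42e-07) by edgeR. Ddx58 (chromosome 4, 40203777 to 40239825) had 65.8 and 68.1 CPM in wild type, 72.2 in inducible HIF-1α library 1 and 35.8 in library 2. Its library 2 alone was low, and the log2 fold change was -0.31 ± 0.33 (adjusted p = 0.666 by edgeR). Dhx58, encoding the third helicase of this family, LGP2, had 8.96 and 7.85 CPM in wild type and 15.9 and 6.25 CPM in inducible HIF-1α, so it was high in library 1 only. Eif2ak2, encoding the RNA-activated kinase PKR, had 84.7 and 87.7 CPM in wild type and 126 and 110.4 CPM in inducible HIF-1α (0.45 ± 0.18, adjusted p = 0.271 by edgeR), without overlap.

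Among the 4 transcription factor genes, the groups did not overlap for Irf9 alone. Irf9, the DNA-binding partner of STAT2, had 32.7 and 34.4 CPM in wild type and 61.3 and 40.3 CPM in inducible HIF-1α (log2 fold change 0.60 ± 0.25, adjusted p = 0.299 by edgeR). It was higher in both inducible libraries, more so in library 1. Stat2 had 29.9 and 36.7 CPM against 40.2 and 30.9 CPM, and the groups overlapped (0.09 ± 0.24, adjusted p = 0.878 by edgeR). Irf1, an early interferon gamma target, had 33.2 and 30.6 CPM in wild type, 42.3 CPM in library 1 and 15.5 CPM in library 2 (-0.14 ± 0.43, adjusted p = 0.899 by edgeR). Irf7, the factor that amplifies type I interferon production, had 4.96 and 3.09 CPM in wild type against 6.39 and 1.38 CPM. For Irf1 and Irf7 library 1 was the highest of the 4 libraries and library 2 the lowest.

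In the ISG15 system, a ubiquitin-like modifier pathway, the modifier and its protease differed in pattern. Isg15, the modifier gene, had 1.19 and 1.48 CPM in wild type, 3.22 CPM in inducible HIF-1α library 1 and 0.561 CPM in library 2, a low level of 15 to 83 counts per library. Usp18, encoding the protease that removes ISG15 and dampens IFNAR2 signalling, had 13.7 and 15.1 CPM in wild type and 21.9 and 25.0 CPM in inducible HIF-1α. It was the only one of these 6 genes whose groups did not overlap, and library 2 was its highest (0.70 ± 0.23, adjusted p = 0.204 by edgeR). The neighbouring genes Parp9 and Dtx3l on chromosome 16, which encode an ADP-ribosyltransferase family protein and its ubiquitin ligase partner, were both highest in library 1. Dtx3l had 107 and 123 CPM in wild type and 206 and 118 CPM in inducible HIF-1α (0.50 ± 0.28, adjusted p = 0.426 by edgeR), and Parp9 had 18.7 and 19.8 against 31.0 and 17.6 CPM. Parp14 had 52.0 and 51.8 CPM in wild type against 99.99 and 44.8 CPM (0.48 ± 0.36, adjusted p = 0.538 by edgeR). Trim30a, a ubiquitin ligase gene of a cluster on chromosome 7, had 130.2 and 129 CPM in wild type, 185 CPM in library 1 and 71.7 CPM in library 2.

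Of the 19 antiviral effector genes, 13 were above both wild-type libraries in inducible HIF-1α library 1 and 12 were below both in library 2. The oligoadenylate synthetase genes, whose products activate RNase L, were mostly high in library 1. Oas2 (chromosome 5, 120730333 to 120749886) had 11.5 and 8.86 CPM in wild type and 47.8 and 17.1 CPM in inducible HIF-1α. Both inducible libraries were higher, at 4.69 and 1.67 times the wild-type mean, with a log2 fold change of 1.67 ± 0.48 (adjusted p = 0.164 by edgeR). Oas1a had 7.91 and 10.5 CPM in wild type against 22.4 and 9.50 CPM, and Oas3 had 24.0 and 27.8 CPM against 53.9 and 17.2 CPM. Oasl2, a synthetase-like gene, had 7.02 and 6.05 CPM in wild type, 18.9 CPM in library 1 and 1.53 CPM in library 2, a 12.3-fold gap between the inducible libraries. Its relative Oasl1 ranged from 5.05 to 8.76 CPM. Oas1g, a close relative of Oas1a named after its values were seen, had 5.15 and 4.85 CPM against 16.2 and 6.81 CPM, and reads of such copies may not be separable.

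The Ifit genes, a chromosome 19 cluster encoding proteins that bind foreign RNA, did not move together. Ifit1 had 6.87 and 6.51 CPM in wild type, 19.4 CPM in inducible HIF-1α library 1 and 3.33 CPM in library 2. Ifit2 lay between 45.5 and 55.1 CPM in all 4 libraries. Ifit3 had 3.36 and 3.65 CPM in wild type and was lower in both inducible libraries, at 2.13 and 0.636 CPM. The neighbouring relative Ifit1bl2, named after its values were seen, fell from 11.9 and 13.99 CPM to 3.56 and 2.66 CPM (log2 fold change -2.06 ± 0.32, adjusted p = 0.0429 by edgeR). Among all relatives of the interferon response genes looked up, it alone had an adjusted p under 0.05 by edgeR. The neighbours Ifit1bl1 and Ifit3b were also lower in both inducible libraries, with an adjusted p of 0.145 and 0.519 by edgeR.

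Other effectors were lower in both inducible libraries. Rsad2, encoding the antiviral enzyme viperin (chromosome 12, 26442743 to 26456452), had 51.0 and 43.4 CPM in wild type and 31.0 and 13.5 CPM in inducible HIF-1α (log2 fold change -1.09 ± 0.38, adjusted p = 0.23 by edgeR). Mx1, a dynamin-like GTPase gene that is non-functional in most laboratory mouse strains, had 6.79 and 8.12 CPM in wild type against 3.29 and 0.299 CPM, from 85 and 8 counts. Its log2 fold change was -2.05 ± 0.88 (adjusted p = 0.301 by edgeR), and it was named for its values after they were seen. Its neighbour Mx2 was not lower in library 1, with 1.46 and 1.06 CPM in wild type against 2.09 and 0.150 CPM. Ly6e, a surface protein gene with antiviral roles, had 296 and 367 CPM in wild type and 236 and 214 CPM in inducible HIF-1α (-0.56 ± 0.20, adjusted p = 0.226 by edgeR). For Rsad2, Mx1 and Ly6e the groups did not overlap, and library 2 was the lowest.

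The remaining effectors were high in library 1 or near wild type. Ifi44 had 12.5 and 13.2 CPM in wild type, 36.5 CPM in library 1 and 6.77 CPM in library 2, and Rtp4 had 5.75 and 3.32 CPM against 16.7 and 3.70 CPM. Bst2, encoding the virus-retaining protein tetherin, had 4.52 and 6.28 CPM in wild type against 9.80 and 6.10 CPM, and Ifi27 had 6.61 and 8.77 against 15.7 and 7.37 CPM. Xaf1 had 37.2 and 39.2 CPM against 53.1 and 26.7 CPM. Ifi35 lay between 7.22 and 9.68 CPM in all libraries, and the exonuclease gene Isg20 between 12.0 and 17.2 CPM, with library 2 highest.

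The guanylate binding protein (GBP) genes encode large GTPases that coat pathogen vacuoles, and they lie in 2 clusters, on chromosomes 3 and 5. The 3 chromosome 3 genes were all above both wild-type libraries in inducible HIF-1α library 1. Gbp7 (142530336 to 142550151) had 80.0 and 65.2 CPM in wild type and 204 and 133 CPM in inducible HIF-1α, so both inducible libraries were higher. Its log2 fold change was 1.21 ± 0.26 (adjusted p = 0.0886 by edgeR, between 1.1e-15 and 0.0000158 when either inducible library was left out). Gbp2 (142620663 to 142638008), named after its values were seen, had 13.3 and 15.4 CPM in wild type, 47.3 CPM in library 1 and 7.90 CPM in library 2 (0.94 ± 0.70, adjusted p = 0.537 by edgeR). Gbp3 had 21.0 and 20.0 CPM against 42.7 and 17.8 CPM (0.56 ± 0.40, adjusted p = 0.517 by edgeR). For Gbp2 and Gbp3 library 1 was highest and library 2 lowest. The neighbours Gbp5 and Gbp2b, looked up after these values were seen, were high in library 1 too but differed in library 2. Gbp5 had 11.1 and 9.74 CPM in wild type against 34.2 and 16.5 CPM, both above wild type, and Gbp2b had 9.03 and 8.35 CPM against 31.0 and 8.79 CPM, with library 2 between the wild-type libraries.

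The 4 genes of the chromosome 5 cluster were mixed in library 1 and lowest in library 2. Gbp9 (105076464 to 105110357) had 13.1 and 11.8 CPM in wild type and 6.12 and 2.17 CPM in inducible HIF-1α, without overlap (log2 fold change -1.59 ± 0.49, adjusted p = 0.188 by edgeR). Gbp8 had 119 and 97 counts in wild type, 87 in inducible HIF-1α library 1 and 1 count in library 2. Gbp4 had 8.77 and 4.06 CPM in wild type, 5.07 CPM in library 1 and 0.449 CPM in library 2. Gbp6 was above both wild-type libraries in library 1, with 2.61 and 2.82 CPM in wild type against 9.03 and 0.599 CPM (log2 fold change 0.82). Gbp10, a relative in the same cluster looked up after these values were seen, had 2.02 and 1.62 CPM in wild type against 6.35 and 0.486 CPM. In library 1 Gbp6 and Gbp10 thus stood at 3.33 and 3.50 times the wild-type mean. Of the chromosome 3 genes, Gbp3 stood at 2.08, Gbp7 at 2.81, Gbp5 at 3.29 and Gbp2b at 3.57 times. Gbp11, another relative in the chromosome 5 cluster, stood at 0.99 times, from low counts.

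The 5 IRG genes and Gvin1, a very large interferon-inducible GTPase gene, were high in library 1. All 6 were over 2-fold above both wild-type libraries in inducible HIF-1α library 1. Tgtp1 (chromosome 11, 48985329 to 48992246) had 15.9 and 15.6 CPM in wild type, 149.6 CPM in library 1 and 22.2 CPM in library 2. Both inducible libraries were higher, at 9.50 and 1.41 times the wild-type mean, with a log2 fold change of 2.45 ± 0.77 (adjusted p = 0.193 by edgeR). Without inducible HIF-1α replicate 1 the value was 0.49. The near-identical Tgtp2 had 17.1, 16.2, 158 and 25.6 CPM in the same order, so reads of the copies may be shared. Iigp1 (chromosome 18, 60373616 to 60392634), an IRG gene named after its values were seen, had 3.02 and 2.86 CPM in wild type, 31.8 CPM in library 1 and 1.91 CPM in library 2. Its library 1 stood at 10.8 times the wild-type mean and its library 2 at 0.649 times (2.52 ± 1.07, adjusted p = 0.3 by edgeR, and -0.63 without inducible HIF-1α replicate 1). Ranked by the nearer of the 2 wild-type libraries, Iigp1 and Tgtp1 were in places 2 and 3 of the 14043 genes tested for their level in library 1.

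Igtp, which encodes the regulatory protein IRGM3 (chromosome 11, 58199556 to 58207592), had 16.6 and 10.7 CPM in wild type and 75.4 and 16.7 CPM in inducible HIF-1α. Its log2 fold change was 1.75 ± 0.65 (adjusted p = 0.245 by edgeR), and library 2 lay just above the higher wild-type library. Its neighbour Irgm2 had 23.1 and 25.5 CPM in wild type, 75.0 CPM in library 1 and 19.0 CPM in library 2. Irgm1, which is needed for normal hematopoietic stem cell function in mice, had 37.8 and 40.8 CPM in wild type and 91.2 and 48.6 CPM in inducible HIF-1α, without overlap (0.83 ± 0.31, adjusted p = 0.248 by edgeR). Gvin1, named after its values were seen, had 459 and 439 CPM in wild type, 1282 CPM in library 1 and 252 CPM in library 2 (0.77 ± 0.64, adjusted p = 0.578 by edgeR). Its counts were identical in all 4 libraries to those of Gm4070, so they belong to both rows and cannot be assigned to Gvin1 alone. The GAS and ISRE arrangement printed for Tgtp1, Igtp and Irgm2 did not go with one level: Gm12185, which holds it too, had 47.4 and 67.8 CPM in wild type against 47.4 and 20.4 CPM.

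**Figure D4:**
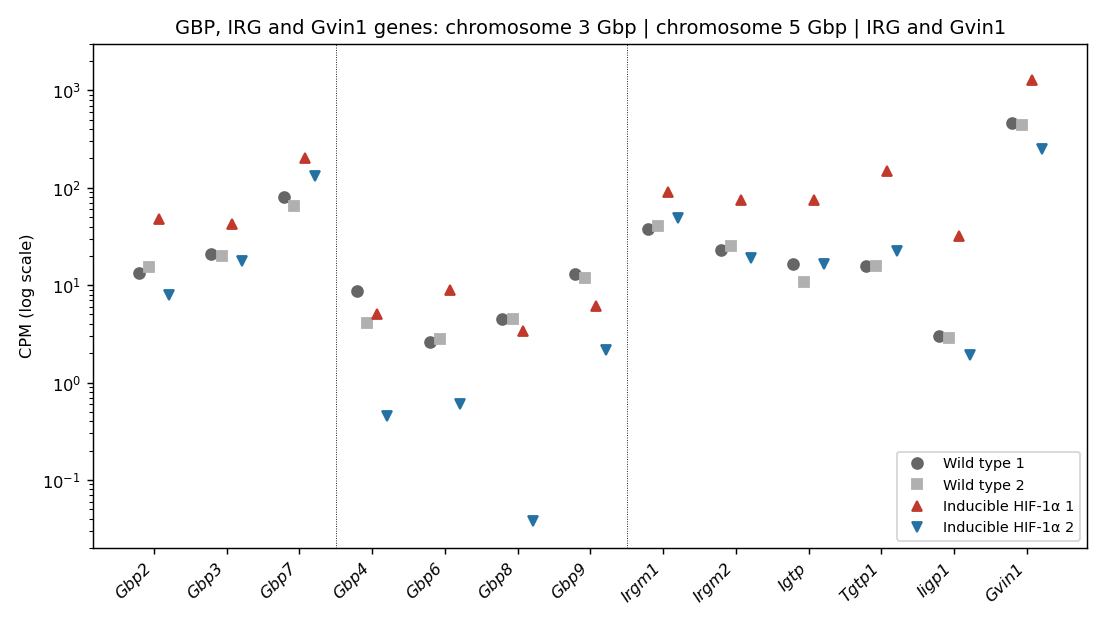
CPM on a log scale of the 13 GBP, IRG and Gvin1 genes in each library (the GTPase genes Mx1 and Mx2 are not plotted), with dotted lines between the chromosome 3 Gbp genes, the chromosome 5 Gbp genes, and the IRG genes with Gvin1. Library 1 of inducible HIF-1α (red) is the highest point for 10 of them, and the library 2 point of Gbp8 is 1 count.

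The PYHIN genes, a chromosome 1 cluster encoding interferon-inducible DNA-binding proteins, were low in inducible HIF-1α library 2. Ifi203 had 115 and 104 CPM in wild type, 145 CPM in library 1 and 54.9 CPM in library 2 (log2 fold change -0.14 ± 0.41, adjusted p = 0.897 by edgeR). Ifi204 had 12.2 and 13.8 CPM in wild type and 9.37 and 2.17 CPM in inducible HIF-1α, without overlap (-1.17 ± 0.61, adjusted p = 0.387 by edgeR). Ifi205 had 6.61 and 4.38 CPM against 8.48 and 0.973 CPM (-0.22 ± 0.85, adjusted p = 0.919 by edgeR). Library 2 was the lowest of the 4 libraries for all 3 genes. Relatives of these genes on chromosome 1 were looked up as well. Ifi207, Ifi208, Ifi209, Ifi213, Ifi214 and Mndal were lower in both inducible libraries than in both wild-type libraries. Ifi209 had 56.4 and 51.1 CPM in wild type against 34.1 and 14.4 CPM. Ifi202b and Ifi211 were above both wild-type libraries in library 1 and below both in library 2. Genes of this cluster resemble each other, so the assignment of reads among them is uncertain.

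Other genes of the interferon pathway, 48 in a list of ligands, receptors, signalling and antigen presentation genes, were looked at in the same way. Of these 41 were tested, and 0 were higher and 0 lower by edgeR's quasi-likelihood test (0.114% and 1.004% of all genes). The inducible libraries went apart here too. For 12 of the 41 genes library 1 was above and library 2 below both wild-type libraries (7.38% of all genes), and 13 were over 2-fold higher in library 1 than in library 2 (8.71%). For Jak1 and Jak2 it was the other way round (8.63%). In library 2, 33 of the 41 were below both wild-type libraries (42.4%). In library 1, 16 were above both (36.5%) and 18 below both (41.6%). The median log2 ratio of library 1 over the 41 genes was -0.01 to wild-type library 1 and -0.03 to wild-type library 2. Both inducible libraries were below both wild-type libraries for 15 of the 41 genes (28.2%) and above both for 2 (24.6%). At an unadjusted p under 0.05, 8 were lower and none higher (11.5% and 5.44% of all genes). DESeq2 and the exact test of edgeR each called 6 lower (Irf5, Tlr7, Tlr9, Ifngr2, Ifnlr1 and Ciita) and none higher (5.69% and 6.62% of all genes called lower), and limma-voom called Irf5 and Tlr9 lower (1.36%). The median log2 fold change was -0.16. The ligand genes Ifnb1, Ifna1, Ifna2, Ifna4, Ifnl2 and Ifnl3 had 0 counts in all 4 libraries, and Ifng had 3 counts in wild-type library 2 and 0 elsewhere. Transcripts of these 7 ligand genes were thus not detectable at this depth in either inducible library, and other interferon genes were not looked up.

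The pathway genes with the smallest p were lower in inducible HIF-1α. Tlr9, a receptor of unmethylated DNA, had 12.1 and 13.5 CPM in wild type and 2.94 and 0.935 CPM in inducible HIF-1α (log2 fold change -2.72 ± 0.53, adjusted p = 0.0803 by edgeR). Irf5, a transcription factor downstream of such receptors, had 30.3 and 33.9 CPM against 8.60 and 2.81 CPM (-2.49 ± 0.49, adjusted p = 0.0811 by edgeR). Ciita, the master regulator of MHC class II genes, had 10.04 and 15.2 CPM against 5.07 and 2.84 CPM (-1.67 ± 0.40, adjusted p = 0.119 by edgeR). Both inducible libraries lay below both wild-type libraries in each of these genes.

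Most receptor and signalling genes changed less, apart from Ifngr2 and Ifnlr1. Ifngr2, the signal-transducing chain of the interferon gamma receptor, had 37.4 and 36.4 CPM in wild type and 16.8 and 8.98 CPM in inducible HIF-1α (log2 fold change -1.52 ± 0.32, adjusted p = 0.0902 by edgeR). Its partner Ifngr1 lay between 159 and 183 CPM in all 4 libraries. The receptor gene Ifnlr1, named after its values were seen, had 66.3 and 91.1 CPM in wild type against 42.5 and 22.8 CPM. Its groups did not overlap (log2 fold change -1.27 ± 0.33, adjusted p = 0.138 by edgeR). Ifnar1 had 102 and 94.2 CPM in wild type against 85.5 and 70.4 CPM, and Ifnar2 had 64.8 and 62.5 against 61.4 and 51.6 CPM.

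Several MHC class I genes were highest in inducible HIF-1α library 1. Nlrc5, the activator of MHC class I genes, had 25.1 and 31.5 CPM in wild type, 108 CPM in library 1 and 16.4 CPM in library 2. B2m, the light chain of MHC class I, had 391.9 and 328 CPM in wild type against 751 and 279.7 CPM, and the peptide transporter gene Tap1 had 44.0 and 51.8 against 97.4 and 42.8 CPM. In each, library 1 was the highest and library 2 the lowest of the 4 libraries. These genes were named after their values were seen.

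Cell type markers also differed between the inducible HIF-1α libraries. The summed level of 13 macrophage and monocyte markers was 1631 and 1641 CPM in wild type, 1082 CPM in library 1 and 451 CPM in library 2, and 8 of the 13 fell, with C1qa and Cd5l at 0 in library 2. Ccr2, Ly6c2, Vcam1 and Csf1r carried most of it, and Ly6c2 was high in library 1, with 309 and 232 CPM in wild type against 393 and 118 CPM. The other 9 markers of the list summed to 155 and 159.8 CPM in wild type against 12.8 and 8.72 CPM. The 8 mature neutrophil markers summed to 9854 and 8030.1 CPM in wild type against 5826 and 2482 CPM. The 9 B cell markers, of which 8 fell, summed to 419 and 388 CPM in wild type against 15.0 and 4.30 CPM, with Pax5 at 0 in both inducible libraries and Vpreb3 and Blk at 0 in library 2. The 9 plasmacytoid dendritic cell markers, a cell type known for high Irf7 and Bst2, summed to 457 and 423 CPM in wild type against 302 and 210.4 CPM. Tcf4 and Runx2 carried most of it. The other 7 summed to 159.0 and 164 CPM in wild type against 4.804 and 5.01 CPM, low in both inducible libraries alike. Most of that remainder in wild type was Spib alone, with 130 and 133 CPM against 1.90 and 2.06 CPM. Siglech had 11.3 and 13.2 CPM in wild type against 2.01 and 2.13 CPM. Of the 9 markers 3 fell, and Pacsin1 and Klk1 were at 0 in both inducible libraries, Klk1 also in wild-type library 2, and Cox6a2 in library 2. The 9 T and NK cell markers summed to 139.8 and 156 CPM against 77.6 and 43.9 CPM, with Cd3g at 0 in library 2. The 8 erythroid markers summed to 5826 and 5741 CPM in wild type, 3549 CPM in library 1 and 5970 CPM in library 2. Of these Tfrc rose, from 663 and 522 CPM to 2262 and 3168 CPM, and Hba-a1 fell. Without Tfrc the sums were 5164 and 5219 CPM in wild type against 1287 and 2801 CPM, below wild type in both inducible libraries. Hbb-bs was the largest part of these sums, with 3475 and 3395 CPM in wild type against 684 and 1555 CPM. Of the 8 erythroid markers, 3 were higher and 3 lower in both inducible libraries than in both wild-type libraries (24.6% and 28.2% of the genes tested). Gata1 and Klf1 were among the higher ones, Gata1 with 101 and 76.9 CPM in wild type against 107 and 224 CPM.

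The sums in inducible HIF-1α library 1 were 1.804 times those of library 2 for HSPC markers, 2.40 times for macrophage and monocyte markers, 2.35 times for neutrophil markers, 3.49 times for B cell markers, 1.77 times for T and NK cell markers, 1.44 times for plasmacytoid dendritic cell markers and 0.595 times for erythroid markers. On the log2 scale the macrophage and monocyte sum differed by 1.26 and the neutrophil sum by 1.23. The B cell sum differed by more. The value was 0.85 for HSPC, 0.82 for T and NK cell, 0.52 for plasmacytoid dendritic cell and -0.75 for erythroid markers. The most abundant markers carry such sums, so these values are not comparable with a median of ratios of single genes. Mpo was the largest part of the HSPC sum, with 2076 CPM in library 1 and 910 CPM in library 2. Kit alone of the HSPC markers was higher in library 2 than in library 1, with 347 and 390.4 CPM in libraries 1 and 2. Myb had 574 and 509 CPM in the same order. In library 1 the HSPC sum was above both wild-type libraries, and the sums of the other cell type lists were below both. The part of cell composition in the difference between the inducible libraries was not tested.

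**Figure D5:**
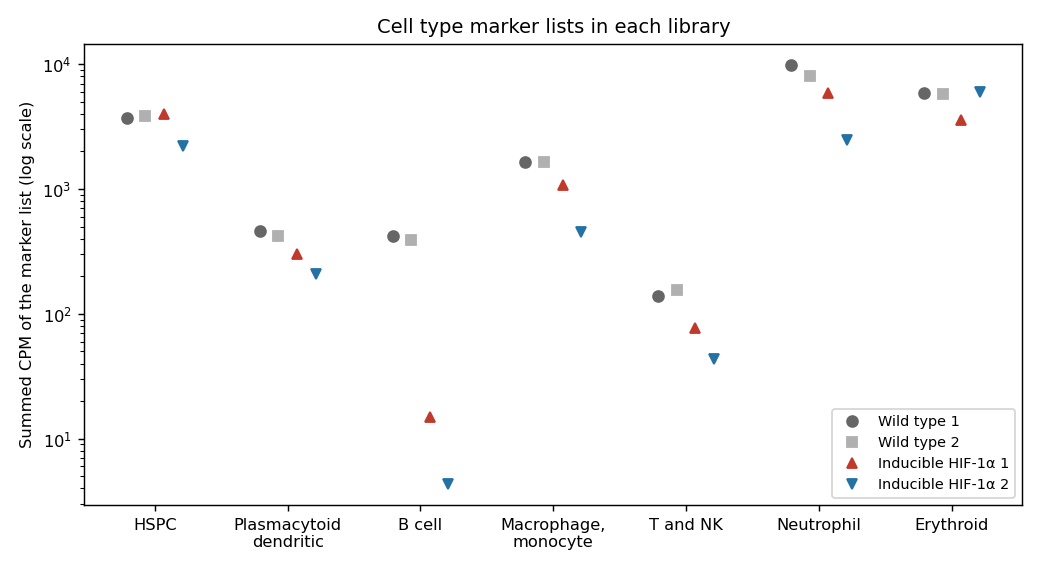
Summed CPM, on a log scale, of the cell type marker lists in each library. Library 2 of inducible HIF-1α (blue) is the lowest for every list but the erythroid one, and B cell markers are lower in both inducible libraries than in wild type.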

How the data were processed

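The deposited table holds raw counts per Entrez gene identifier, with no normalization by the authors. Per the submitters' processing notes the build was mm10 and the tools bcl2fastq, CASAVA 1.8, TopHat and edgeR; the counting tool, its strand setting and its handling of multi-mapped reads were not stated. Identifiers were looked up among RefSeq symbols of GRCm38.p6, and 81 of 24415 had no match.

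Genes were filtered with filterByExpr (minimum count 10), which kept 14043, scaled by TMM and tested with edgeR 4.0.16 (glmQLFit and glmQLFTest, R 4.3.3) over all genes, with Benjamini-Hochberg adjustment, a threshold of 0.05 and no block. SE is the log2 fold change divided by the square root of F. Ratios of single libraries use log2(CPM + 0.5). Alternatives were the exact test of edgeR, DESeq2 1.42.0, voom with limma 3.58.1, other scalings and filters, a replicate block and leaving out each library. The code was tested on simulated data.

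Named with full statistics were any called gene and up to 3 genes per role with the smallest p. Of the other pathway genes these were the 4 with the smallest p, and 1 more that is not reported here. Values of other genes were added after they were seen. Protein sequences were not used here. The genes, lists and tests were chosen with earlier results of these data known.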

Additional observations from a re-analysis of the deposited data

How the results depend on the processing

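Among the 49 interferon response genes, the counts of 0 higher and 0 lower held with DESeq2-type size factors, upper quartile or total count scaling. They also held with limma-voom, with the 10 most abundant genes left out and at an adjusted p under 0.01. The same counts came with at least 1 CPM in all 4 libraries, which left 41 of the genes. The fits without each wild-type library called almost no gene of any kind and are no check. DESeq2 and edgeR's exact test each gave 4 higher and 1 lower, and no low count filter gave 4 higher. An adjusted p under 0.1 gave 2 higher, and the share of all genes at that limit was not computed. Leaving out 1 library gave 0 to 26 higher and 0 to 22 lower, and a median log2 fold change from -0.52 to 0.88. Of the other pathway genes, DESeq2 and the exact test gave 6 lower, no filter 5 (3.55% of all genes) and limma-voom 2, and leaving out 1 library gave 0 to 19 lower and 0 to 7 higher (19.7% of all genes lower without inducible HIF-1α replicate 1, and 3.84% higher without replicate 2). The cause of these differences was not tested.

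With the replicate number as a block, 1 interferon response gene (Gbp7) was called higher (0.242% of all genes) and 3 pathway genes (Irf5, Tlr9 and Ifngr2) lower (2.47% of all genes called lower). Same-numbered libraries correlated at 0.077 in their deviations from the group means over 14043 genes, so the numbers were not taken to pair the samples.

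Directions turned for single genes when 1 library was left out. The log2 fold change ranged from -0.90 to 0.15 for Ddx58, from -0.11 to 0.31 for Stat2, from -1.04 to 0.44 for Irf1, from -0.22 to 0.98 for Parp14, from -0.21 to 1.09 for Gbp3, from -0.9996 to 0.44 for Ifi203, from -2.50 to 0.66 for Ifi205, from -0.63 to 3.47 for Iigp1, from -0.84 to 1.55 for Gvin1 and from -0.86 to 1.76 for Gbp2. The alternatives for named pathway genes were chosen after seeing the data. Gbp8, Gbp4, Gbp6, Mx1 and Mx2 had 1 to 16 counts in inducible HIF-1α library 2, which limits their precision.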
